A study of Mus musculus with 4 samples.

Results

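Chromosome 3 was the autosome with the lowest mean replication timing (RT) in diploid F121-9 mouse embryonic stem cells (mESCs), and its members are all 50 kb bins that carry a value on it, 3131 of the 51427 deposited bins. The chromosome was chosen by the mean RT of its bins. F121-9 is a hybrid cas/129 line, grown in N2B27+2i+LIF medium, which holds mESCs in an undifferentiated state. Population-based Repli-seq gave 4 libraries from these cells, 2 from early S-phase and 2 from late S-phase. In this assay a BrdU pulse marks newly made DNA, cells are sorted by DNA content, and the marked DNA is purified and sequenced. RT is the log2 of the early over the late read number in a bin, each scaled to its library as RPM, so that a bin with RT above 0 is called early here and any other bin late. All 4 libraries come from the same line and medium. There was 1 deposited value per bin for all libraries together, so no value has an error between replicates, no difference below was tested, and the number of reads behind a bin is unknown. No expression was measured, so the cell type was not checked against marker genes. Each value averages over many cells and both homologs, and a bin of middle RT cannot be told apart from a mixture of early and late cells or homologs.

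DNA replication in mammalian cells proceeds through large domains that are copied at characteristic times of S-phase. Early domains are known to be rich in genes, GC and open chromatin, and late domains to be poor in genes and often attached to the nuclear lamina. Constant timing regions (CTRs) have nearly the same RT over long stretches, and timing transition regions (TTRs) join an early and a late domain. Mouse chromosomes are telocentric, with the centromere at the start of the assembly, and chromosome 3 carries among others the Sox2 gene, a histone gene cluster and the epidermal differentiation complex, a block of genes for the proteins of the outer skin barrier.

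The sequences before the start of 6 genes are shown because they span the range of RT and of CpG number on the chromosome. Each is the 250 bases before the RefSeq start (GRCm38.p6, the mm10 assembly), 5′ to 3′ on the strand of the gene, and capitals mark each CpG, the dinucleotide that is methylated in mammals and that is dense in CpG islands. None overlaps an annotated exon.
Sox2, chr3:34649745-34649994, strand +: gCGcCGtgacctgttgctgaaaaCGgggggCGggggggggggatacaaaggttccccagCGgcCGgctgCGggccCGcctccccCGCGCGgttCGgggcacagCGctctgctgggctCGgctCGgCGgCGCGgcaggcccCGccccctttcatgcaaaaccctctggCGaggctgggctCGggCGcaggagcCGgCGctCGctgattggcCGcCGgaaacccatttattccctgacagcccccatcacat
Kcnn3, chr3:89519914-89520163, strand +: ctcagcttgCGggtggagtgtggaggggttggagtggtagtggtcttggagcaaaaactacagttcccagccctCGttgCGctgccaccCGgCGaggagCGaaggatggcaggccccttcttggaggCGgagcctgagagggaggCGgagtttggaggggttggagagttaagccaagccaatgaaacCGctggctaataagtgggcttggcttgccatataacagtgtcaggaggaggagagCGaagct
S100a16, chr3:90537004-90537253, strand +: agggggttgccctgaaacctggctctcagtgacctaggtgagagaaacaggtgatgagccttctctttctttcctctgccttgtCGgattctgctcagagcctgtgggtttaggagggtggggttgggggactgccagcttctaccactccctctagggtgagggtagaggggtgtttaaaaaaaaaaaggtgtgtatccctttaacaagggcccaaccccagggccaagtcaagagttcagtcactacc
Kcna3, chr3:107035912-107036161, strand +: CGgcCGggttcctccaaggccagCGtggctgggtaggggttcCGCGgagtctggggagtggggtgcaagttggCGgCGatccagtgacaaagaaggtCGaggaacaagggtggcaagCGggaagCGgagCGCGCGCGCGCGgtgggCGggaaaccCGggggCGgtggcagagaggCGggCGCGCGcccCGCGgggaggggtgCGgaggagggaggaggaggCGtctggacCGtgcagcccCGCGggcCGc
Tchhl1, chr3:93468504-93468753, strand +: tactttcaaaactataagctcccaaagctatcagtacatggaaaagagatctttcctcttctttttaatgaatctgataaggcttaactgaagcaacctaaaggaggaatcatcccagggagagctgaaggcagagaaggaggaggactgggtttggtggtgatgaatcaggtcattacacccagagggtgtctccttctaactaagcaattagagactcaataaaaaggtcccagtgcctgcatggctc
Sprr2a3, chr3:92285054-92285303, strand +: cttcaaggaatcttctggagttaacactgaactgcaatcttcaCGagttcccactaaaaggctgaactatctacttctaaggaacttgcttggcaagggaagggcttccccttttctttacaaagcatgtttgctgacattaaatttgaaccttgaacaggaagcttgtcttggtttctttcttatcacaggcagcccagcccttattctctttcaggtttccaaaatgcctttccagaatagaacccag
Sox2, a transcription factor that keeps mESCs pluripotent, started in a bin of RT 3.35 and had 27 CpGs in this window. Kcnn3, a calcium-activated potassium channel, had 10 at RT 3.4. S100a16, a calcium-binding protein, started in a bin of RT 3.52 with 1 CpG, so an early start did not require a CpG-dense window. Kcna3, a voltage-gated potassium channel, had 31 CpGs in a late bin of RT -2.39. Tchhl1, a trichohyalin-like protein of the skin, had 0 at RT -0.66, and Sprr2a3, a cornified envelope precursor, had 1 at RT -4.19.

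RT along chromosome 3 ran from -4.54 to 3.93 over bins from 3000001 to 159950000 (mm10), and 876 of 3131 bins, 28.0% (exact 95% binomial interval 26.4% to 29.6%, a counting interval that ignores the dependence of bins), were early. Over the autosomes and X together 40.9% of bins were early. The mean RT was -1.50 (SD over bins 2.34), the value that chose this chromosome. The autosome just above it was chromosome 1, with a mean RT of -1.04, and X, which was left out of the choice, was below it at -1.68. The median RT was -2.31, with quartiles of -3.56 and 0.41. Of the 3133 bins that hold assembled sequence 2 had no value. Both lie in the amylase gene cluster, from 113300001 to 113400000. Neighboring bins had a Pearson's correlation of 0.986 across 3126 pairs, which come from the same libraries and mostly lie in the same domain, and the noise of a bin inside CTRs was 0.165 (SD, log2). This noise comes from flat stretches, and that of bins on slopes or near RT 0 was not measured. Bins closer to 0 than this were still called early or late by their sign, also where this is not repeated below.

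**Figure D1:**
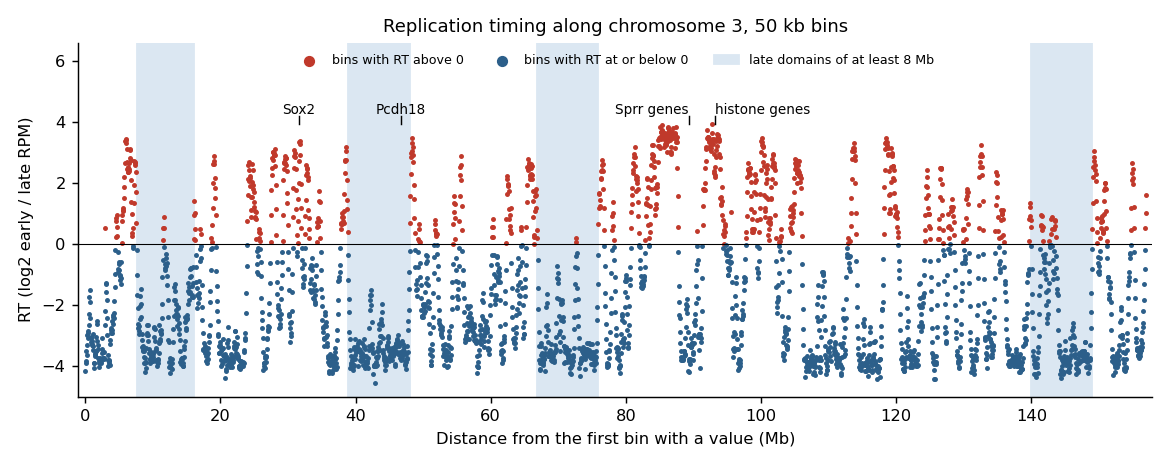
RT of each 50 kb bin (y axis, log2 of early over late RPM) along chromosome 3, as distance in Mb from the first bin with a value (x axis). Red points are bins above 0, blue points the others, and the shaded stretches are the 4 late domains of at least 8 Mb. Most points lie below 0, and the densest group of high values lies just before the Sprr genes.

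The difference from the other 18 autosomes lay mostly in how many bins were early and less in how early or late they were. The mean over the bins of the other autosomes was -0.51, or 0.99 above chromosome 3, and 43.0% of those bins were early. When the gap of -0.99 was divided, -0.69 of it, came from the smaller share of early bins. A further -0.13 came from the level of early bins, which averaged 1.76 on chromosome 3 and 2.13 elsewhere, and -0.17 from the level of late bins, which averaged -2.77 and -2.51. This division is arithmetic on the values that chose the chromosome. Very early bins, with RT above 3, made up 4.34% of chromosome 3 and between 6.27% (chromosome 13) and 28.4% (chromosome 11) of the other autosomes. Bins with RT below -3 made up 40.1%, against 15.4% (chromosome 11) to 34.5% (chromosome 16) elsewhere. The class from -4 to -3.5 held 22.4% of the bins of chromosome 3 and 13.7% of those of the other autosomes, while the class from 3 to 3.5 held 3.16% and 8.78%.

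**Figure D2:**
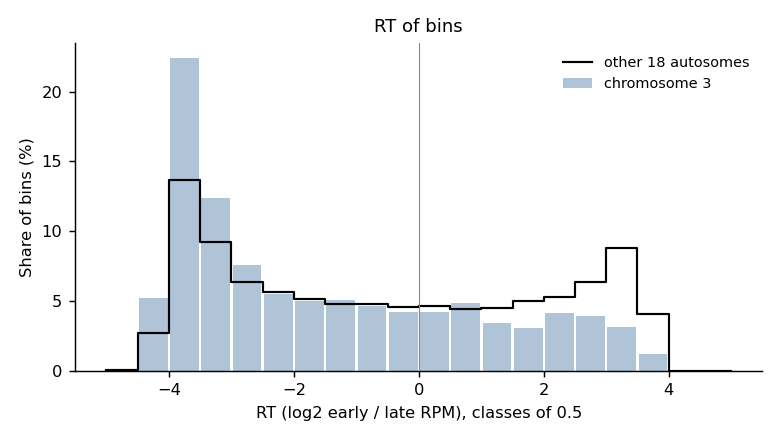
Share of bins (y axis, %) in RT classes of 0.5 (x axis, log2 of early over late RPM), as bars for chromosome 3 and as a line for the other 18 autosomes. Both have a mode between -4 and -3.5, and the class from 3 to 3.5, a second mode on the other autosomes, holds 3.16% of the bins of chromosome 3.

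Domains were called between neighboring states of RT at or above 1 and at or below -1, with borders where RT crosses 0. There were 35 early and 35 late domains. Early domains had a median length of 801 kb (quartiles 668 and 1647 kb) and late domains of 2190 kb (quartiles 1156 and 4309 kb). On the other autosomes the medians over domains were 1087 and 1497 kb. Taken chromosome by chromosome, the median length of early domains was between 845 kb (chromosome 10) and 1455 kb (chromosome 11) on the other autosomes, and that of late domains between 1016 kb (chromosome 13) and 1985 kb (chromosome 18), so that chromosome 3 stood at the end of the order in both. The domains are cut from the values that chose the chromosome, so these ranks are not a separate trait. Early domains covered 43.0 Mb and late domains 114.0 Mb. In 13 of the 35 early domains a bin exceeded RT 3, compared with 306 of 525 on the other autosomes, and in 23 of the 35 late domains a bin fell below RT -4, compared with 191 of 522.

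Late domains of at least 3 Mb numbered 14, and 4 of these were at least 8 Mb long. Together those 4 took up 35.7 Mb, or 22.7% of the bins, and held 73 starts of protein-coding genes, 7.29% of those on the chromosome. The longest ran from 41851696 to 51037627 (9186 kb) with a mean RT of -3.38 and a GC content of 37.4%. It held 4 gene starts, of Pcdh10 and Pcdh18, both protocadherins that act in adhesion between neurons, of Pabpc4l, and of Slc7a11, which imports cystine. It also held the latest bin of the chromosome, from 45850001 to 45900000, with an RT of -4.54 between neighbors of -3.97 and -3.92 and no gene. The domain from 142969766 to 151987450 (9018 kb) had a mean RT of -2.60 and 39 gene starts, among them the Clca genes, which encode secreted proteins of mucosal surfaces. It was broken by 4 short runs of early bins, none above RT 1, of which the highest reached 0.96. The domain from 69888616 to 78892550 (9004 kb) had a mean RT of -3.15 and 12 gene starts, including Sis, the intestinal sucrase-isomaltase, and Bche, butyrylcholinesterase. The domain from 10613785 to 19066622 (8453 kb) had a mean RT of -2.62, 18 gene starts and a repeat content of 48.5%. The 4 domains thus differed in depth, with means from -3.38 to -2.60.

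Early domains of at least 2 Mb numbered 6. They filled 363 of the 3131 bins and held 340 gene starts, 33.9% of the chromosome's. The longest ran from 85859015 to 90758948 (4900 kb), with a mean RT of 2.73 and 134 gene starts or 27.3 per Mb. Its genes include Nes, which encodes the intermediate filament nestin, and Rps27, a ribosomal protein. The next ran from 94329353 to 98557512 (4228 kb), with a mean RT of 1.89 and 113 gene starts. It contained the earliest bin of the chromosome, from 95700001 to 95750000, at RT 3.93 between neighbors of 3.64 and 3.38, where Ecm1, an extracellular matrix protein, starts. Within the same domain lay 15 consecutive bins below 0, from 97750001 to 98500000, with a lowest RT of -1.0. Starts in that run include Notch2, a receptor of cell fate decisions, and Phgdh, of serine synthesis. The domains from 102687197 to 105188869 (2502 kb) and from 121104405 to 123320301 (2216 kb) had mean RTs of 1.92 and 2.03. The first of these holds Nras, a small GTPase.

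Outside the called states, 19 runs of early bins lay inside late domains, off their borders, without reaching RT 1. They were 1 to 8 bins long, with peaks from 0.07 to 0.96. Protein-coding genes started in 17 of them. Inside early domains there were 8 runs below 0 that did not reach RT -1, with lows from -1.0 to -0.07, and 5 of them held a gene start. Of single bins on chromosome 3, 62.6% of those from RT 0 to 2 held no start, and 74.6% of those from -2 to 0. A run of several bins can hold a start more often by its length alone. No share for runs of equal length was computed, so the counts have no matched background. Runs that touch a domain border were not counted, such as that at Rpl34, which reached 0.997. The counted runs are described and were not compared with other chromosomes.

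Windows of 10 Mb showed where on the chromosome the early bins lay. The windows from 80 to 90 Mb and from 100 to 110 Mb were those with a mean RT above 0, at 0.33 (SD over bins 2.63) and 0.19 (2.22), and 55.0% and 62.0% of their bins were early. The window between them averaged -0.39. Together these 30 Mb held 19.2% of the bins, 36.3% of the early bins and 493 gene starts, or 49.2% of all. Without them the mean RT of the chromosome was -1.87, with 22.0% of bins early. The lowest window means were -2.81 from 40 to 50 Mb, -2.75 from 110 to 120 Mb and -2.69 from 70 to 80 Mb, with 10.6%, 9.69% and 10% of bins early and 15, 33 and 21 gene starts. The chromosome ends were late. The first 5 Mb with values averaged -2.71, with 7% of bins early, and the last 5 Mb averaged -2.38, with 13.0% of bins early and a highest RT of 2.64.

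Between the domains 69 TTRs were called, 34 from early to late along the assembly and 35 from late to early. Their median length was 300 kb, end bins included (quartiles 250 and 350 kb, range 150 to 850 kb), and 64 crossed RT 0 a single time. The 1027 TTRs of the other autosomes had a median of 250 kb, with the same quartiles, in steps of 50 kb. The median slope within TTRs was 11.5 log2 per Mb on chromosome 3 and 12.1 elsewhere. The TTR with the largest change between its end bins ran from 33600001 to 33850000, from RT -1.57 to 1.83, a change of 3.4, at the border before the domain of Sox2. The steepest, at 22.9 log2 per Mb, ran from 98500001 to 98650000 through Zfp697 and Gm10681. The shallowest, at 2.62 log2 per Mb, ran from 28200001 to 29050000, with its center in Tnik, a kinase gene. Of the 69 centers 30, or 43.5%, lay inside a protein-coding gene. The share of the chromosome that such genes cover was not computed, so this count has no background to be read against.

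CTRs, runs of at least 500 kb with an absolute slope at or under 2.5 log2 per Mb over 5 bins, numbered 33 and held 492 bins. That is 15.7% (exact 95% binomial interval 14.5% to 17.0%), against 14.3% over the autosomes and X. The interval counts bins as independent, although CTR bins lie in runs of at least 500 kb, so it is too narrow. The share was close to the background, and it moved with the slope limit, to 3.67% at 1.5 and 39.0% at 5. Late CTRs numbered 29 and early CTRs 4. The longest late CTR ran from 124900001 to 126150000, 1250 kb at a mean RT of -3.79 (SD over bins 0.16), with 2 overlapping genes. The longest early CTR ran from 87900001 to 89100000, 1200 kb at a mean RT of 3.49 (SD over bins 0.22), with 45 overlapping genes.

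GC content, which the choice of the chromosome did not use, was also the lowest among autosomes. It averaged 40.5%, against 40.9% (chromosome 16) to 43.8% (chromosome 11) on the others, and 50.5% of the bins of chromosome 3 had a GC content under 40%, compared with 36.4% of bins elsewhere. Gene density was low but not the lowest. There were 6.40 protein-coding gene starts per Mb, rank 4 from the lowest, with 5.47 on chromosome 12 and 14.2 on chromosome 7. The repeat-masked share was the highest, at 35.8%, against 30.6% to 35.2%, and CpG density was the lowest, at 7.62 per kb. Across the bins of the chromosome RT had a Spearman's correlation with GC content of 0.70 (n = 3131 bins of the same libraries, which are not independent), with CpG density of 0.66, with the number of gene starts of 0.39 and with the repeat share of -0.28. On the other autosomes these were 0.74, 0.73, 0.43 and -0.28.

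Within chromosome 3 the composition followed RT in steps. The 390 bins above RT 2 had a GC content of 44.4% (SD 2.90) and 19.6 gene starts per Mb. The 1254 bins at or below RT -3 had a GC content of 38.2% (SD 1.65) and 2.09 gene starts per Mb, and 92.4% of them held no start. Repeats made up 30.4% of the first and 39.4% of the second class. At the same RT classes the other autosomes had 46% and 38.3% GC and 20.1 and 2.26 starts per Mb. Bins above RT 2 were thus lower in GC on chromosome 3 by more than bins at or below -3. The class above RT 2 has no upper limit, and a smaller part of it was above RT 3 on chromosome 3 than elsewhere. The GC values were not adjusted for this. Bins that went against this order were few. In 23 bins RT was above 2 with a GC content under 40%, which is 5.90% of all bins above RT 2 and compares with 5.0% elsewhere. They include bins of Trim33, a chromatin-binding ubiquitin ligase, at RT 2.69 and 36.7% GC, and of Smc4, a condensin subunit, at RT 2.49 and 39.3%. In 3 bins RT was below -3 with a GC content over 44%, of which 1 is the first bin of the chromosome and 1 holds the start of Fat4, an atypical cadherin.

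A regression of RT on GC content and gene starts over the other autosomes gave a mean of -1.24 for chromosome 3, and the observed mean was lower by 0.26. Chromosomes 7 and 8 had lower residuals, and the largest residual was that of chromosome 11, at 0.30. The residual of chromosome 3 was -0.26 with GC content alone, -0.25 in 20 classes of GC content and -0.16 in windows of 1 Mb, and it was rank 3 from the lowest of the 19 autosomes in each form. The difference lay in bins of low to middle GC content. In bins of 38% to 40% GC the mean RT was -2.66 (SD 1.58, n = 774) on chromosome 3 and -2.13 on the other autosomes, and in bins of 40% to 42% it was -1.41 (SD 1.98, n = 618) and -0.90. In the class from 36% to 38% chromosome 3 was lower by 0.15, and in those from 42% to 46% by at most 0.07. It was higher by 0.09 both from 34% to 36% and from 46% to 48%, by 0.13 from 48% to 50% (n = 37) and by 0.49 from 50% to 52% (n = 7), and lower by 0.26 from 52% to 54% (n = 6). Over all bins of 38% to 42% GC chromosome 3 had the lowest mean of the 19 autosomes, -2.10, followed by chromosome 8 at -1.88, whereas over bins below 38% it held rank 5 from the lowest and over bins of 42% or more rank 3. These are bins of the rule's own measure, and the differences are given without a test.

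**Figure D3:**
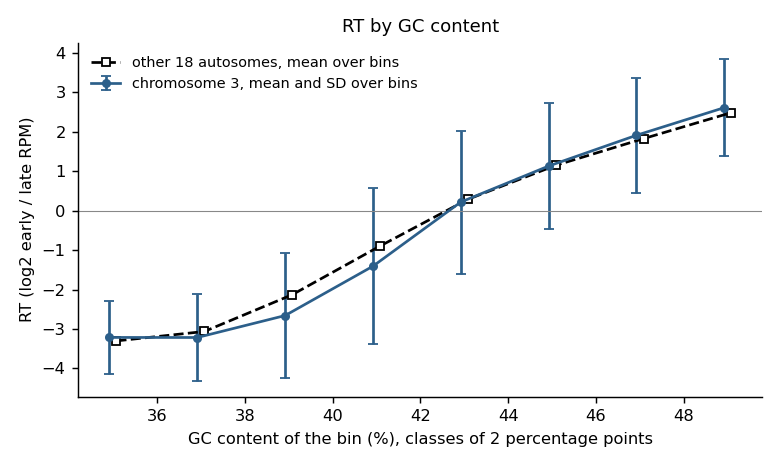
Mean RT (y axis, log2 of early over late RPM) of bins in GC classes of 2 percentage points (x axis, %), for chromosome 3 with SD over bins as bars and for the other 18 autosomes without bars. Classes with at least 30 bins on chromosome 3 are drawn. The lines part between 38% and 42% and lie within 0.13 of each other from 42% upwards.

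Stretches of more than 1 Mb without a protein-coding gene body numbered 22 and summed to 41.9 Mb. In 21 of them the mean RT was below 0, down to -3.84, and in 14 every bin was late, where 72.0% of all bins of the chromosome were late. On the other autosomes 224 of 226 such stretches, or 99.1%, had a mean below 0. The exception on chromosome 3, from 34652462 to 35754105, lies directly after Sox2. It had a mean RT of 0.60, with bins between -1.42 and 3.36. The longest such stretch, 3.58 Mb from 41803321 to 45378397, averaged -3.33 and ended at Pcdh10. Bins at the other extreme, with at least 5 gene starts, numbered 10. In 9 of these RT was above 2, and the remaining bin, from 92400001 to 92450000, was at RT -3.76 and holds Sprr genes. On the other autosomes 202 of 223 such bins were early, or 90.6%, close to the 90.0% of chromosome 3.

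Of 1004 protein-coding genes on chromosome 3 the start lay in a bin with a value for 1002, and in an early bin for 622, or 62.1% (exact 95% binomial interval 59.0% to 65.1%). That counting interval ignores the dependence of neighboring genes, which share bins and domains. Over the autosomes and X 72.9% of genes started in early bins. The share was the lowest of the autosomes, followed by 63.3% on chromosome 6 and 64.5% on chromosome 14. This rank rests on the values that chose the chromosome. The median RT of the genes was 0.91, with quartiles of -1.19 and 2.71, and 2.40 on the other autosomes. Genes were placed in 21 groups by their symbols, and because neighboring genes share bins, the number of bins is given where it is small.

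All 7 ribosomal and proteasome subunit genes of the list started in early bins, from Rpl22l1, a large ribosomal subunit protein, at RT 0.36 to Rps27, of the small subunit, at 3.62. The 10 histone genes were early but fill 2 bins, at RT 2.21 and 2.87. A mixed list of 19 genes of cell division, DNA repair, survival and RNA processing had 17 early members and a median of 2.49. It is not a complete set of any of these functions. It holds RNA genes such as Prpf38b, of splicing, and Chtop, of mRNA export, and leaves out the cyclin gene Ccna1, which was at -0.03, within the noise of a bin from 0. Of the list Mcl1, which blocks apoptosis, was at 3.64, Cks1b, which binds cyclin-dependent kinases, at 3.62, and Plk4, the kinase of centriole duplication, at 0.49. The exceptions were Ccna2, the cyclin of S-phase, and Exosc9, of the RNA exosome, which share a bin at RT -0.71. The late domain of that bin, from 36185712 to 37270066, was shallow, with a mean RT of -1.28 and a lowest RT of -1.97.

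Enzyme families differed from each other. The 7 glutathione S-transferases of the mu class, which detoxify electrophiles, were all early, between 1.69 and 2.65. The 6 alcohol dehydrogenases lay between -0.91 and 0.22, with Adh5, the glutathione-dependent formaldehyde dehydrogenase, and Adh4 in the early bin. The 3-beta-hydroxysteroid dehydrogenases, of steroid hormone synthesis, fell along a slope of the profile. Hsd3b4 was at 1.07, Hsd3b5 at -1.23, Hsd3b2 at -2.41, Hsd3b3 at -3.0, Hsd3b6 at -3.44 and Hsd3b1 at -3.70. That order of RT is also their order along the chromosome, so 1 family spans from an early bin to the depth of a late domain within the steepest TTR and the bins after it. Of the 5 chitinase-like genes none was early, with a range from Chil4 at -3.57 to Chil5 at -0.48. The amylase genes had values for 4 of 6 members, all late, from -3.82 to -2.71, and the start bins of Amy2a2 and Amy2a3 had none. These genes are near-identical copies, and the read number of their bins is unknown. The 3 fibrinogen chain genes, of blood clotting, share a bin at -1.0. Of 5 carbonic anhydrases 2 were early, Car14 at 3.28 and Car13 at 0.89, while Car1 was at -0.84, and Car2 and Car3 were both at -0.79.

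The 4 Fc receptor-like and Cd1 genes, which act in antibody binding and lipid antigen display, were early, from 0.95 (Fcrl1) to 3.26 (Cd1d1). The 5 guanylate-binding protein genes, which are induced by interferon, lay close to the middle of the scale, from Gbp5 at -1.01 to Gbp2 at 0.09. The latter was within the noise of a bin from 0. Of 5 fatty acid-binding protein genes 4 were early, with Fabp12 at 2.68, and Fabp5 was at -0.06, within the noise of a bin from 0.

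The listed receptors and channels of nerve cells were mostly late. Of the 16 neuronal adhesion and synapse genes of the list, which is not a complete set, 12 were late, with a median RT of -3.36. The latest were Unc5c, a netrin receptor, at -4.12, Olfm3 at -4.07 and Ntng1, netrin G1, at -4.02, and the early ones were Dclk2, a doublecortin-like kinase, at 3.26, Ank2, which anchors membrane proteins, at 2.42, Tnik at 0.83 and Glrb, of the glycine receptor, at 0.46. Both protocadherins were late, Pcdh18 at -3.70 and Pcdh10 at -2.55. Of the 9 potassium channel genes 3 were early, Kcnn3 at 3.4, Kcnmb3 at 2.67 and Kcnc4 at 0.45, and the latest was Kcna3 at -2.39. The 7 vomeronasal receptor genes, for pheromone detection, were late in 7 bins, from Vmn2r7 at -3.72 to Vmn2r3 at -0.93. The 2 olfactory receptor genes were at -3.33 (Olfr266) and -0.12 (Olfr1402), the latter within the noise of a bin from 0.

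The listed developmental regulators were split evenly. Of 22 genes 11 were early, and their median was -0.15. The list is not a complete set, and the split depends on it. It leaves out Mef2d, at 3.69, and Mab21l1, at -2.70, for example. Of the list Sox2 was the earliest at 3.35, followed by Wnt2b, a secreted signal, at 2.67, and Etv3 at 1.87. The latest was Zfhx4, a zinc finger homeobox factor, at -3.78, followed by Bmpr1b, a receptor of bone morphogenetic proteins, at -2.67 and Hnf4g, a nuclear receptor, at -2.66. Genes near the middle included Foxo1, a forkhead factor, at 0.16 and Shox2, a homeobox factor, at -0.46.

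**Figure D4:**
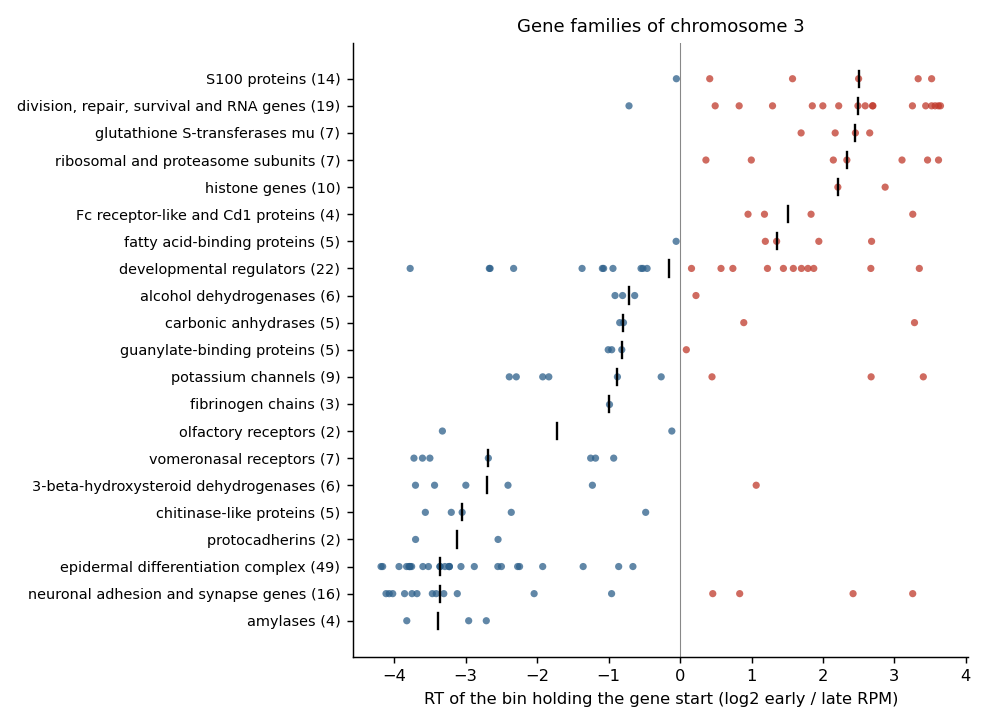
RT of the bins that hold the starts of genes in 21 groups (x axis, log2 of early over late RPM), 1 point per bin, with the number of genes with a value in parentheses. Red points are early bins, blue points late bins, and black lines the medians over genes. The epidermal differentiation complex and the vomeronasal, chitinase-like and amylase genes have no early point, and the histone, ribosomal and glutathione S-transferase groups have no late point.

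The epidermal differentiation complex, drawn here without the S100 genes, was the largest group. The group as drawn was late throughout, while most S100 genes beside it were early. The 49 genes of the complex, Smcp and Sprr2j-ps among them, started in 26 bins, none of them early. Their median RT was -3.36. The complex makes up a gene-dense stretch, and the late domain that contains it, from 90758949 to 94329352, had 21 gene starts per Mb, while the 4 longest late domains had between 0.44 and 4.32. Its mean RT was -2.78 and its GC content 40.1%. The Sprr genes, which encode small proline-rich proteins that are cross-linked into the cornified envelope, filled 7 bins between -4.19 and -3.76. The Lce genes, of late cornified envelope proteins, filled bins between -3.79 and -3.07. Lor, which encodes loricrin, the main protein of that envelope, was at -2.25. From Crnn to Tchhl1, 8 bins that hold Flg, for filaggrin, and the fused-type S100 genes Hrnr, Rptn and Tchh, RT lay between -2.66 and -0.66 and was highest at Tchhl1.

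The S100 genes, for small calcium-binding proteins, flank the complex as drawn here. Of 14 members 13 were early. The 12 on the left side lie in 4 bins that fell in order from 3.52 (S100a1, S100a13, S100a14 and S100a16) to 3.33 (S100a2 and S100a3), 2.5 (S100a4, S100a5 and S100a6) and 1.57 (S100a7a, S100a8 and S100a9). On the right side S100a11 was at -0.05, within the noise of a bin from 0, and S100a10 at 0.42, both on a local peak that did not reach RT 1. Between S100a9 and the first gene of the complex lay a run of 13 bins at or below RT -3.5, with a mean of -3.67, in which no protein-coding gene starts. Beyond S100a10 followed a further late stretch of Tdpoz genes, whose 13 bins had a mean RT of -2.81. The windows before Sprr2a3, Lor and Tchhl1 held 1, 1 and 0 CpGs, against 27 for Sox2 and 31 for Kcna3. That before the early gene S100a16 also held 1, so a low number was not particular to the complex. Many genes of the complex are close copies of each other, and the read number of these bins is unknown.

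**Figure D5:**
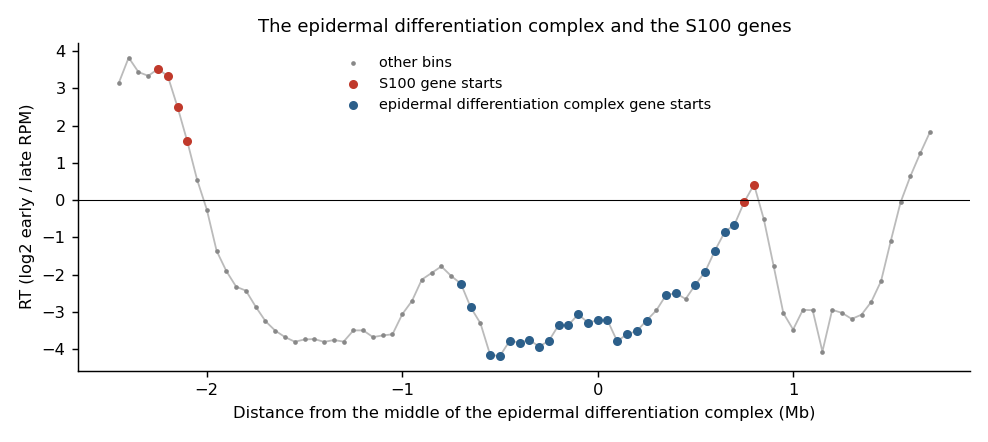
RT of single bins (y axis, log2 of early over late RPM) against the distance in Mb from the middle of the epidermal differentiation complex (x axis). Blue points hold starts of its genes, red points starts of S100 genes and gray points neither. The blue points lie between -4.19 and -0.66, and the red points on the left side between 1.57 and 3.52.

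Of the 30 genes of 300 kb or more 6 started in an early bin and 4 had an early mean over all their bins, with a median RT at the start of -2.76. Over all genes of the chromosome 622 of 1002 started in an early bin. On the other autosomes 184 of the 511 genes of this length did, or 36.0%, with a median of -1.17, and the difference was not tested. The longest was Gm37240 (1391 kb), with a start at RT 0.14 and a mean over its 29 bins of -0.09. Naaladl2 (1346 kb) averaged -3.66, Nlgn1 (906 kb), a postsynaptic neuroligin, -3.80, Dpyd (871 kb), which degrades pyrimidines, -3.75, and Negr1 (755 kb), a neuronal adhesion molecule, -3.40. In Naaladl2, Nlgn1, Dpyd and Negr1 no bin was above -1.34, so each of the 4 lay in late DNA along its whole length. The latest bin that holds a gene start, at -4.21, is that of Gucy1a1, a subunit of the nitric oxide receptor.

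CpG number before the start differed with timing. Over 250 bases before the GENCODE start, genes in early bins had a median of 11 CpGs (quartiles 4 and 19, n = 622) and genes in late bins of 4 (quartiles 1 and 12, n = 380). At least 10 CpGs were present for 335 early genes (53.9%) and 114 late genes (30%), compared with 44.8% of all 1002. At most 1 CpG was present for 7.72% of early and 32.6% of late genes. A CpG was found in 93.0% of these windows. Without the 49 genes of the epidermal differentiation complex the late median was 5, and the share with at least 10 was 34.4%. Genes below RT -3 had a median of 2, or 3 without the complex. The letters searched were CG, which reads the same on both strands, and a count of them says nothing about methylation in these cells. Late genes with CpG-dense windows such as Kcna3 were thus not rare.

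The RefSeq table places 45 miRNA hairpins on the chromosome, and 30 were in early bins, or 66.7%, against 77.7% over the autosomes and X. Several share a bin or a cluster. The mature sequences below are those of hairpins whose timing lies far from 0, with the seed (bases 2 to 8), which pairs with targets, in capitals.
mmu-miR-302b-3p, chr3:127545275-127545297: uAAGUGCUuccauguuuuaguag
mmu-miR-302d-3p, chr3:127545665-127545687: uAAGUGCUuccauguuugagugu
mmu-miR-367-3p, chr3:127545779-127545800: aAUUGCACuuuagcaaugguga
mmu-miR-92b-3p, chr3:89227126-89227147: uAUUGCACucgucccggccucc
mmu-miR-15b-5p, chr3:69009775-69009796: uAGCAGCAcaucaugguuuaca
mmu-miR-16-5p, chr3:69009918-69009939: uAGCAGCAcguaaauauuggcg
mmu-miR-9-5p, chr3:88215613-88215635: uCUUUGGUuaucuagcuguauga
mmu-miR-137-3p, chr3:118433901-118433923: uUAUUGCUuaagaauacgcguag
miR-302b and miR-302d, of the cluster known for its abundance in embryonic stem cells, share the seed AAGUGCU, and all 5 hairpins of that cluster, with miR-367, lie in a single bin of RT 2.22, within the bounds of the gene Larp7. miR-367 shares the seed AUUGCAC with miR-92b, which lies in a bin of RT 3.79 in the longest early domain. miR-15b and miR-16-2, with the seed AGCAGCA, lie within Smc4 at RT 2.49. The hairpins of miR-9, known for its role in neural progenitors, and of miR-137, known in neurons, lie at opposite ends of the scale, at RT 3.68 for Mir9-1 and -4.14 for Mir137.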

How the data were processed

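Repli-seq was performed on 2 early and 2 late S-phase libraries of F121-9 cells. By the paper's methods, the authors scaled the reads of both fractions to RPM and formed log2 ratios, early against late, in 50 kb bins. The deposited log2 value, 1 per bin for all 4 libraries, was used here. The submitters' processing notes name mm10, Bowtie2, SAMtools and bedtools. How replicates were combined, and whether bins were filtered or smoothed, is not given in the sources used here. Depth per library is unknown.

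Only bins on the 19 autosomes and X entered. GC content, CpGs and soft-masked repeats came from the reference genome and gene starts from GENCODE vM21. A gene took the RT of the bin of its start. Domains and TTRs were set by states at RT 1 and -1 (gaps in a TTR at most 200 kb), and CTRs a slope over 5 bins of at most 2.5 log2 per Mb for at least 10 bins. Each chromosome was predicted from a least-squares fit to the other autosomes. Genes were named as the 4 longest domains of each state, the extreme bins, TTRs and chromosome ends, the earliest and latest member of each group, the 5 longest genes and the genes of the extreme bins. Others were added as examples after their values were seen. The chromosome, the groups and these rules were chosen with earlier results of these data known. Of 1004 genes 768 matched the RefSeq table of promoters by symbol. Of 39 of these windows considered, 11 overlapped no exon, and the 6 printed were chosen from them after their values were seen. The calls were run on a single simulated profile of long, flat plateaus with even slopes and noise. Short or shallow domains and irregular slopes were not simulated, so calls of these were not tested. Python 3.11.15, numpy 2.4.6, scipy 1.17.1, pandas 2.3.3 and matplotlib 3.10.9 were used.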

Additional observations from a re-analysis of the deposited data

How the results depend on the processing

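Chromosome 3 remained the lowest of the 19 autosomes in mean RT with a running median over 5 bins and without bins next to a missing bin, in median RT (-2.31, followed by -1.73 on chromosome 16), and in the share of early bins with the cut at the median RT of the autosomes and X, -0.98 (36.6%, followed by 43.0% on chromosome 16) and with the running median. With that cut 73.5% of its genes were early. The share of bins in CTRs was 3.67% and 39.0% at slope limits of 1.5 and 5 log2 per Mb, 27.8% with a minimum of 5 bins and 27.0% with the running median. Late domains of at least 8 Mb numbered 2 with states at 0.5 and -0.5, an alternative chosen after seeing the data. The difference in median CpG number between early and late genes was 7, and 32.5 over 500 bases on each side of the start, a wider window. The other alternatives, including those on the number of domains and TTRs, the residual and the epidermal differentiation complex (47 to 49 of 49 genes late), stayed within the noise SD of a bin, the exact 95% interval of the share or 1.5 times the count. For the residual, a mean over many bins, the noise SD of a single bin is a wide limit. The residual went from -0.26 to -0.16 in windows of 1 Mb. No paired analysis was possible because the file holds 1 value per bin for all libraries, and for the same reason leaving out a replicate was not run. Depth limits cannot be given, since reads per bin are unknown.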
